A study of Mus musculus with 9 samples.

Results

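Pattern recognition receptors and their partners in mouse brain were followed through 10 genes: the Toll-like receptor genes Tlr1, Tlr2, Tlr3, Tlr4, Tlr7 and Tlr9, the co-receptor genes Cd14 and Ly96, the adaptor gene Myd88 and the C-type lectin receptor gene Clec7a. They were taken by name from the 19938 genes measured on the arrays, each through the probe set that names that gene alone, and each had 1 such probe set. RNA of mice of about 5 months was hybridised to 9 arrays, 3 for each of 3 groups, labelled as biological replicates. 5xFAD mice injected with human amylin (the APP-amylin arrays) and 5xFAD mice injected with PBS, the vehicle (APP-PBS), were compared with each other and with B6SJLF1/J wild-type mice injected with PBS (WT). All mice were injected intraperitoneally every day for 10 weeks, so every group shares the injections and none was left uninjected. 5xFAD mice carry human APP with familial Alzheimer mutations, driven in neurons by the mouse Thy1 promoter, and deposit amyloid early; amylin is a hormone that beta cells release together with insulin. The tissue is labelled brain, and cortex in the series title.

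Toll-like receptors bind conserved microbial or damage-derived molecules through a leucine-rich repeat ectodomain and signal through a cytoplasmic TIR domain. TLR1, TLR2 and TLR4 sit at the cell surface, where TLR2 pairs with TLR1 for lipopeptides and TLR4 pairs with MD-2, the product of Ly96, for lipopolysaccharide handed over by CD14. TLR3, TLR7 and TLR9 sit in endosomes and bind double-stranded RNA, single-stranded RNA and unmethylated CpG DNA. All of these except TLR3 signal through the adaptor MyD88 to NF-kB and interferon regulatory factors. Dectin-1, the product of Clec7a, binds beta-glucans of fungi and signals through the kinase SYK; in mouse brain it is known as a marker of microglia around amyloid plaques, and microglia are the main brain cells that express most of these receptors.

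RefSeq promoter windows (GRCm38.p6), of 250 bases before and 50 after a start site, were read for 6 of the 10 genes. These were Tlr1, Tlr2, Tlr3, Tlr9, Myd88 and Clec7a, and no window of Tlr4, Tlr7, Cd14 or Ly96 was searched. Those 6 windows, in both forms where a gene had a pair of start sites, were searched on both strands for GAGGAA (the core bound by PU.1, an ETS factor of macrophages and microglia), GGGNNTTCC (NF-kB) and GAAANNGAA (an interferon response element core). The windows of Clec7a, Tlr2 and Myd88 are printed because each held a different one of these motifs and each gene was higher in 5xFAD mice on PBS. They are written 5′ to 3′ on the strand of the gene, which is the minus strand for all of them, with motif matches in capitals. They lie at chr6:129472730-129473029 for Clec7a, chr3:83841559-83841858 for Tlr2 and chr9:119339969-119340268 for Myd88.
Clec7a: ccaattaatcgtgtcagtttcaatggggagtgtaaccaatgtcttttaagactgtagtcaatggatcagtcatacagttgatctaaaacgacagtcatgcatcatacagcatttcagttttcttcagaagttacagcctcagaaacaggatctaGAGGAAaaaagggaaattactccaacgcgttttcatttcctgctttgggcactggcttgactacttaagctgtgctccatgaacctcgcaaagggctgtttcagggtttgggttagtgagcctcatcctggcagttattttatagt
Tlr2: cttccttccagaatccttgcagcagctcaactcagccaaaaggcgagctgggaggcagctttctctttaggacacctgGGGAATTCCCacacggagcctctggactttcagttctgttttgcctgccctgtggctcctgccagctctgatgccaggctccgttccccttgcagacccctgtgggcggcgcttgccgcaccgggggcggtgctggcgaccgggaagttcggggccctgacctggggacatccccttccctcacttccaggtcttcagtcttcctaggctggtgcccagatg
Myd88: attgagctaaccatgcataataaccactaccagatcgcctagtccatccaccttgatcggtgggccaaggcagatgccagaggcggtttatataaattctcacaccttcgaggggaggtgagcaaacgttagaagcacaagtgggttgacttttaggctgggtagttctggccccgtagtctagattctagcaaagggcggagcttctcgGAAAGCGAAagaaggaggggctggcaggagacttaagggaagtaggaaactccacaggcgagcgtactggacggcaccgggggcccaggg
The Clec7a window held GAGGAA once, starting 96 bases before the start site, and the Tlr2 window held GGGNNTTCC on both strands in a single palindrome, starting 172 bases before it. The Myd88 window held GAAANNGAA, starting 40 bases before the start site. GAGGAA was also found in the Tlr9 window and in a single Tlr1 window, while the other Tlr1 window and the Tlr3 window held no match. Among all 32851 promoter windows of this length, 28.3% held GAGGAA, 5.82% GGGNNTTCC and 8.56% GAAANNGAA. A match describes letters in these windows and is not evidence of a bound site.

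The values are log2 intensities after RMA (background correction, quantile normalization and summary per probe set), and a difference of 1 on this scale is a doubling. A gene is called changed where limma, fitted to all 19938 genes on the 9 arrays, gave a Benjamini-Hochberg adjusted p under 0.05. Array medians lay between 5.71 and 5.79. Precision is limited by how many arrays there are, and over all genes a group difference had a standard error (SE) of 0.07 at the median. The labels do not say more about how the replicates were taken, so p-values measure the spread between these samples. Brightness also depends on the probes, so levels are compared between arrays for each gene and never between genes. Tlr4 and Ly96 were in the lowest 25% of genes by mean log2 intensity, and no detection call came with the values.

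Markers of brain regions differed between genotypes, although the series is titled as cortex. All 10 measured striatal markers were higher in 5xFAD mice on PBS than in wild type (median log2 difference 1.54), 8 of 9 hippocampal and 8 of 11 thalamic markers were lower (medians -1.08 and -0.96), and of 9 cortex markers 1 was higher and 2 lower (median -0.05). In 5xFAD mice on amylin against wild type all 10 striatal markers were higher, and 7 of 9 hippocampal and 8 of 11 thalamic markers were lower. The mean log2 intensity of the striatal list was 9.25 to 9.40 under amylin, 9.27 to 9.48 under PBS and 7.71 to 7.93 in wild type. Both comparisons with wild type below rest on these arrays, and the part of regional content in the receptor differences was not tested.

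The first comparison set 5xFAD mice on PBS against wild type. Of the 10 genes, 8 rose in 5xFAD mice on PBS (Clec7a, Cd14, Tlr7, Tlr2, Tlr1, Tlr4, Tlr3 and Myd88), 0 fell and 2 did not pass (Tlr9 and Ly96), whereas 3.66% of all genes tested were called higher. The median log2 difference was 0.64 for the 10 genes and -0.01 for all genes. The same 8 genes had every 5xFAD PBS array above every wild-type array, a pattern found in 11.2% of all genes. Fold changes ran from 1.24 for Myd88 to 6.31 for Clec7a, and 5 of the 8 changed at least 1.5-fold. In whole tissue, more cells of a type and more RNA per cell cannot be told apart.

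**Figure D1:**
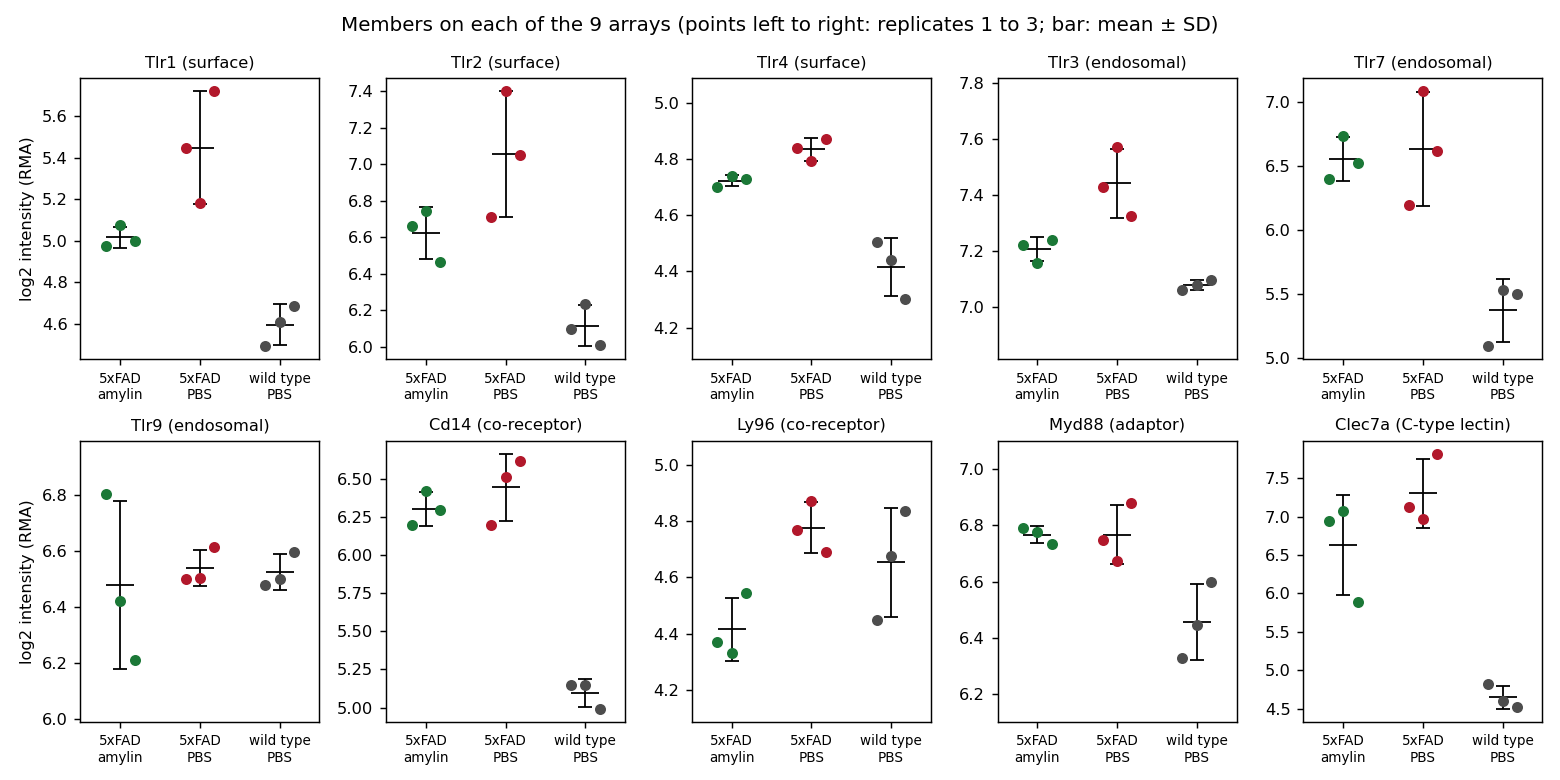
Log2 intensity of each of the 10 genes on each array, with 5xFAD mice on amylin (green) left of 5xFAD mice on PBS (red) and wild type on PBS (grey); points are single arrays and bars the mean ± SD of 3. In 8 panels both 5xFAD groups lie above wild type without overlap, while the groups overlap for Tlr9, and for Ly96 the amylin arrays overlap wild type and lie below PBS.

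All 3 surface receptors rose in 5xFAD mice on PBS. Tlr2 (probe set 10498992), which recognises bacterial lipopeptides, stood at 6.66, 6.75 and 6.46 in 5xFAD mice on amylin, 6.71, 7.40 and 7.05 in 5xFAD mice on PBS and 6.10, 6.24 and 6.01 in wild type. All 6 5xFAD arrays lay above wild type, and the PBS array of replicate 1 lay inside the range of the amylin arrays. Tlr2 was 0.94 ± 0.15 (SE) higher in 5xFAD mice on PBS than in wild type, or 1.92-fold (limma adjusted p = 0.00555). Tlr1 (probe set 10530145), the partner of TLR2, stood at 4.98, 5.08 and 5.00 under amylin, 5.45, 5.18 and 5.72 under PBS and 4.49, 4.61 and 4.69 in wild type. The 3 groups of Tlr1 did not overlap, and the spread was widest under PBS (SD 0.05 under amylin, 0.27 under PBS and 0.10 in wild type). Its difference between 5xFAD mice on PBS and wild type was 0.85 ± 0.12 (SE), or 1.80-fold (adjusted p = 0.00236).

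Tlr4 (probe set 10505517), the signalling receptor for lipopolysaccharide, stood at 4.70, 4.74 and 4.73 in 5xFAD mice on amylin, 4.84, 4.79 and 4.87 in 5xFAD mice on PBS and 4.51, 4.44 and 4.30 in wild type. The 3 groups did not overlap, and both 5xFAD groups had a small spread (SD 0.02 under amylin and 0.04 under PBS). The difference between PBS-injected 5xFAD mice and wild type was 0.42 ± 0.06 (SE), or 1.34-fold (adjusted p = 0.00274).

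Of the endosomal receptors, Tlr7 and Tlr3 rose in 5xFAD mice on PBS and Tlr9 did not pass. Tlr7 (probe set 10607870), a receptor for single-stranded RNA, stood at 6.40, 6.74 and 6.52 in 5xFAD mice on amylin, 6.20, 7.08 and 6.62 in 5xFAD mice on PBS and 5.09, 5.53 and 5.50 in wild type. The amylin arrays lay within the range of the PBS arrays, and both were above wild type. Its difference between 5xFAD mice on PBS and wild type was 1.26 ± 0.20 (SE), or 2.39-fold (adjusted p = 0.0057). Tlr3 (probe set 10578493), the receptor for double-stranded RNA, which is also known from astrocytes, stood at 7.22, 7.16 and 7.24 under amylin, 7.43, 7.57 and 7.33 under PBS and 7.06, 7.08 and 7.09 in wild type. Its 3 groups did not overlap, and it rose by 0.36 ± 0.06 (SE), or 1.29-fold, in 5xFAD mice on PBS (adjusted p = 0.008).

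Tlr9 (probe set 10588479), which binds CpG DNA, stood at 6.80, 6.42 and 6.21 in 5xFAD mice on amylin, 6.50, 6.50 and 6.61 in 5xFAD mice on PBS and 6.48, 6.50 and 6.60 in wild type. The groups overlapped, and the amylin arrays spread most (SD 0.30 under amylin, 0.07 under PBS and 0.06 in wild type). The difference between 5xFAD mice on PBS and wild type was 0.02 ± 0.12 (SE), with a 95% interval of -0.26 to 0.29 (adjusted p = 0.975).

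Of the co-receptors of TLR4, Cd14 rose in 5xFAD mice on PBS and Ly96 did not pass. Cd14 (probe set 10458382), which passes lipopolysaccharide to TLR4, stood at 6.20, 6.42 and 6.29 in 5xFAD mice on amylin, 6.20, 6.51 and 6.62 in 5xFAD mice on PBS and 5.15, 5.15 and 4.99 in wild type. Both 5xFAD groups lay more than 1 log2 unit above every wild-type array and overlapped each other. The difference between 5xFAD mice on PBS and wild type was 1.34 ± 0.11 (SE), or 2.54-fold, with the smallest adjusted p of the 10 genes (0.000161). Ly96 (probe set 10344966), whose product completes the TLR4 complex, stood at 4.37, 4.33 and 4.54 under amylin, 4.77, 4.87 and 4.69 under PBS and 4.45, 4.68 and 4.84 in wild type. Its wild-type arrays overlapped both 5xFAD groups, and the difference of 0.12 ± 0.10 (SE) between 5xFAD mice on PBS and wild type did not pass (adjusted p = 0.569; 95% interval -0.10 to 0.35).

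Myd88 (probe set 10597648), the adaptor shared by most Toll-like and interleukin-1 family receptors, stood at 6.79, 6.78 and 6.73 in 5xFAD mice on amylin, 6.75, 6.68 and 6.88 in 5xFAD mice on PBS and 6.33, 6.45 and 6.60 in wild type. The amylin arrays fell inside the range of the PBS arrays, and the highest wild-type array came within 0.1 of the lowest PBS array. Myd88 was 0.31 ± 0.08 (SE) higher in 5xFAD mice on PBS, or 1.24-fold (adjusted p = 0.0355). Leaving out wild-type replicate 1 or 2 ended this call (adjusted p = 0.13 and 0.101), as did leaving out PBS replicate 1 or 3 (0.078 and 0.12) and a fit of only these groups (0.0789).

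Clec7a had the largest fitted difference of the 10 genes. Clec7a (probe set 10548375), a beta-glucan receptor, stood at 6.94, 7.07 and 5.89 in 5xFAD mice on amylin, 7.13, 6.97 and 7.82 in 5xFAD mice on PBS and 4.82, 4.60 and 4.53 in wild type. Every 5xFAD array was more than 1 log2 unit above the highest wild-type array, and amylin replicate 3 lay apart from the rest of its group. The difference between 5xFAD mice on PBS and wild type was 2.66 ± 0.30 (SE), or 6.31-fold (adjusted p = 0.001). With single arrays left out, this difference ran from 2.40 (without PBS replicate 3) to 2.83 (without PBS replicate 2).

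**Figure D2:**
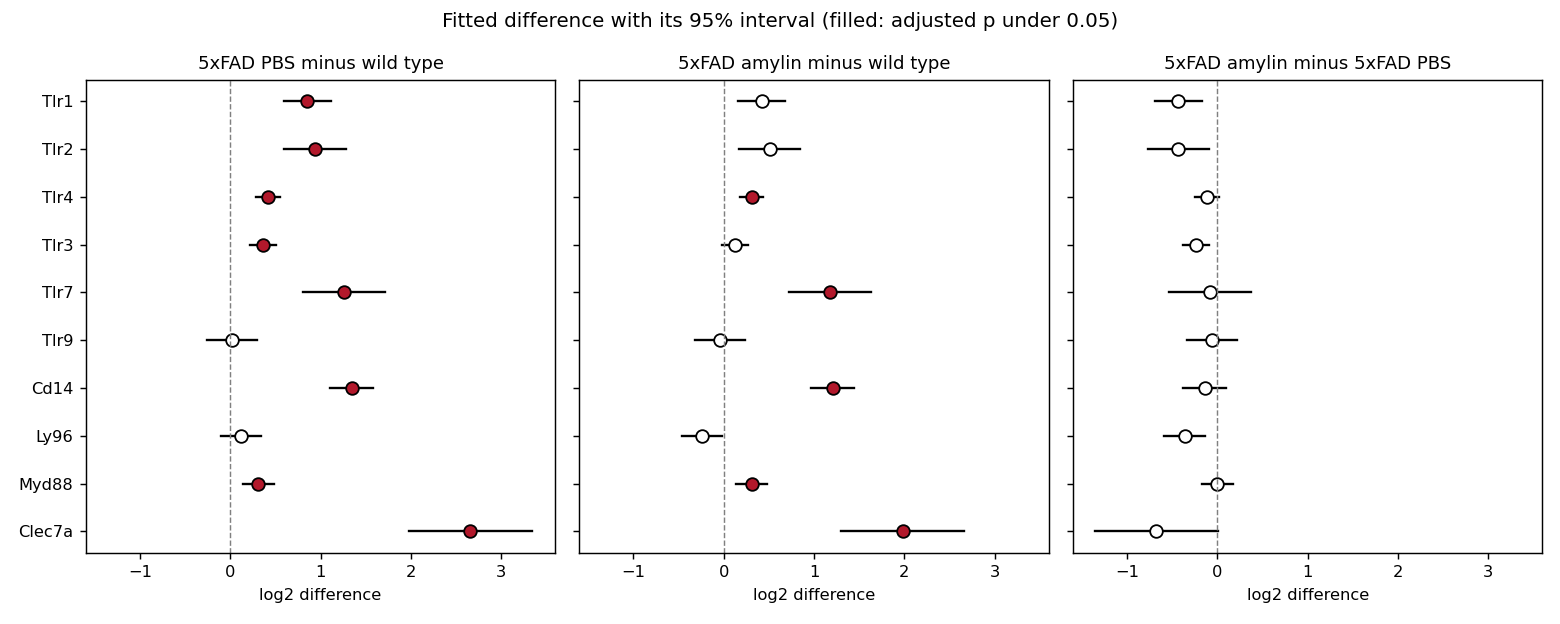
Log2 difference (point) with its 95% interval (line) for each gene in 5xFAD mice on PBS against wild type, 5xFAD mice on amylin against wild type and 5xFAD mice on amylin against 5xFAD mice on PBS, filled where the adjusted p is under 0.05. There are 8, 5 and 0 filled points in these panels, and in the panel of amylin against PBS all 10 points lie at or left of 0.

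Amylin injection was compared with PBS injection among 5xFAD mice. None of the 10 genes passed limma's test in 5xFAD mice on amylin against 5xFAD mice on PBS, where 1 gene of 19938 (0.00502%) passed, and 4 of the 10 had an unadjusted p under 0.05 (1375 of all genes). All 10 means were lower under amylin, with a median log2 difference of -0.19 for the 10 genes and 0.00065 for all genes; that of Myd88 was -0.00063. Tlr1, Tlr3, Tlr4 and Ly96 had every amylin array below every PBS array, a pattern found in 3.81% of all genes. With 1 group of PBS mice behind all of these differences, the 10 values are not independent of each other.

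Clec7a had the largest of these differences, -0.67 ± 0.30 (SE; 95% interval -1.36 to 0.01, adjusted p = 0.721), and it was -0.30 without amylin replicate 3 and -0.89 without amylin replicate 2, the ends of its range with single arrays left out. Without PBS replicate 3 it was -0.42. Tlr1 differed by -0.43 ± 0.12 (95% interval -0.69 to -0.17, adjusted p = 0.634) and Tlr2 by -0.43 ± 0.15 (-0.77 to -0.09, adjusted p = 0.686). With single arrays left out, the Tlr2 difference ran from -0.60 (without PBS replicate 1) to -0.26 (without PBS replicate 2), and that of Tlr1 from -0.57 (without PBS replicate 2) to -0.30 (without PBS replicate 3). Ly96 differed by -0.36 ± 0.10 (95% interval -0.59 to -0.14) and Tlr3 by -0.24 ± 0.06 (-0.38 to -0.09), both with an adjusted p of 0.634. Tlr4 differed by -0.11 ± 0.06 (95% interval -0.24 to 0.02, adjusted p = 0.765).

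Cd14 and Tlr7, called against wild type in both 5xFAD groups, had overlapping amylin and PBS arrays. Cd14 differed by -0.14 ± 0.11 (SE; 95% interval -0.38 to 0.10, adjusted p = 0.816) and ran from -0.26 (without PBS replicate 1) to -0.05 (without PBS replicate 3) with single arrays left out; it was -0.087 without amylin replicate 1. Tlr7 differed by -0.08 ± 0.20 (95% interval -0.54 to 0.38, adjusted p = 0.948) and ran from -0.30 (without PBS replicate 1) to 0.14 (without PBS replicate 2). Tlr9 differed by -0.06 ± 0.12 (-0.34 to 0.22, adjusted p = 0.935), and ran from -0.22 (without amylin replicate 1) to 0.07 (without amylin replicate 3). Myd88 differed by 0.00 within an interval of -0.17 to 0.17 (adjusted p = 0.999).

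The third comparison, of 5xFAD mice on amylin with wild type, uses the same wild-type arrays as the first, so the 2 comparisons do not support each other. Here 5 of the 10 genes were called higher (Clec7a, Cd14, Tlr7, Tlr4 and Myd88) and 0 lower, with 2.35% of all genes called higher. The groups did not overlap for 8 of the 10 genes, higher in each case, against 10.8% of all genes. Cd14 was 1.20 ± 0.11 (SE) higher on the log2 scale, or 2.30-fold (adjusted p = 0.00041), Tlr7 1.18 ± 0.20 or 2.26-fold (0.0112) and Clec7a 1.98 ± 0.30 or 3.95-fold (0.00664). Tlr4 differed by 0.31 ± 0.06 (adjusted p = 0.0169) and Myd88 by 0.31 ± 0.08 (adjusted p = 0.0489).

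The surface pair Tlr1 and Tlr2 and the endosomal Tlr3 did not pass against wild type under amylin. Tlr1 differed by 0.42 ± 0.12 (SE; adjusted p = 0.0742), Tlr2 by 0.51 ± 0.15 (0.0948) and Tlr3 by 0.13 ± 0.06 (0.321). Tlr1 and Tlr2 passed in a fit of only these 2 groups (adjusted p = 0.0174 and 0.0312) and with array weights (0.0475 and 0.0388). The weights were 0.38, 1.61 and 0.64 for amylin replicates 1, 2 and 3, and 1.03, 1.59 and 1.77 for those of wild type. Tlr2 also passed with the replicate number as a block (0.0455). Ly96 differed by -0.24 ± 0.10 (adjusted p = 0.224) and Tlr9 by -0.05 ± 0.12 (0.894). The call of Myd88 was lost when any one of the 5 arrays other than wild-type replicate 3 was left out (adjusted p = 0.103 to 0.172), with array weights (0.056) and in a fit of the 2 groups alone (0.072). Tlr4 lost its call when wild-type replicate 2 (0.0504) or 3 (0.0507) or amylin replicate 3 (0.057) was dropped, and Tlr7 when wild-type replicate 1 was dropped (0.0562).

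By mean level, 8 of the 10 genes had the order 5xFAD on PBS, then 5xFAD on amylin, then wild type. Between amylin and PBS, Myd88 differed by only -0.00063 and Tlr7 by -0.08, and both changed sign under some settings. For Clec7a, Cd14, Tlr7, Tlr4 and Myd88 both 5xFAD groups passed against wild type and did not pass against each other. For Tlr2, Tlr1 and Tlr3 the amylin group stood between the others and passed against neither, although the end groups differed. Ly96 and Tlr9 had their lowest mean under amylin, and no pair of neighbours in their order passed.

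Microglial genes moved on the same arrays. Of 15 measured microglia markers, among them Csf1r, Cx3cr1, P2ry12, Tmem119 and C1qa, 14 were higher in 5xFAD mice on PBS than in wild type (median log2 difference 1.13), with C1qb the one that did not pass. Under amylin 13 of the 15 were higher than in wild type (median 0.86), and between amylin and PBS 0 passed (median -0.25, with 14 of 15 means lower). Relative to the wild-type mean, the mean of the 15 markers on single arrays was 0.73, 1.13 and 0.87 in 5xFAD mice on amylin, 0.86, 1.31 and 1.27 in 5xFAD mice on PBS and within 0.01 of 0 in wild type.

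**Figure D3:**
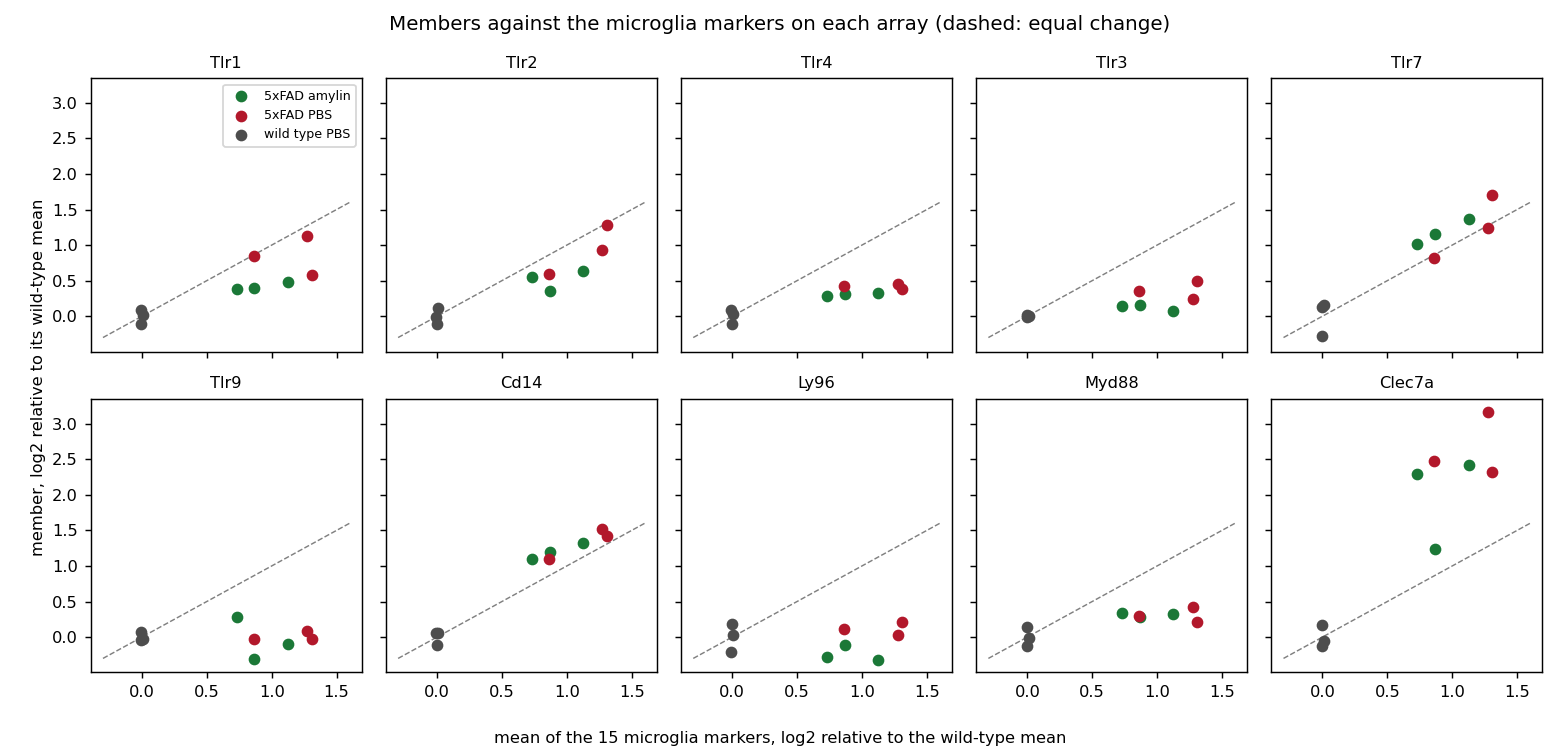
Each gene (vertical axis, log2 relative to its own wild-type mean) against the mean of the 15 microglia markers (horizontal axis, log2 relative to wild type) on each array, for 5xFAD mice on amylin (green), 5xFAD mice on PBS (red) and wild type (grey). Clec7a lies above the dashed line of equal change on all 6 5xFAD arrays, Cd14 just above it, and Tlr3, Tlr4, Myd88, Tlr9 and Ly96 below it.

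Set against those markers on each array, the 10 genes fell into several patterns. Clec7a was above the marker mean by 1.07 ± 0.63 (SD, n = 3) in 5xFAD mice on amylin and 1.51 ± 0.45 (SD, n = 3) in 5xFAD mice on PBS. Cd14 lay slightly above the marker mean on every 5xFAD array. Its excess was 0.30 ± 0.09 under amylin and 0.20 ± 0.08 under PBS (SD, n = 3 each), and the SD of Cd14 itself among the PBS arrays was 0.22. Tlr7 had an excess of 0.27 ± 0.03 under amylin and 0.11 ± 0.25 under PBS, with PBS replicates 1 and 3 just below the marker mean. Tlr2 and Tlr1 changed less than the markers, with -0.40 ± 0.19 and -0.49 ± 0.15 under amylin and -0.21 ± 0.16 and -0.30 ± 0.38 under PBS.

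The other genes stayed further below the marker mean. The values were -0.60 ± 0.18 under amylin and -0.73 ± 0.26 under PBS for Tlr4, -0.78 ± 0.24 and -0.78 ± 0.26 for Tlr3, and -0.60 ± 0.21 and -0.84 ± 0.26 for Myd88 (SD, n = 3 each). Ly96 and Tlr9 were lowest, at -1.15 ± 0.26 and -0.95 ± 0.44 under amylin and -1.02 ± 0.25 and -1.13 ± 0.23 under PBS. These are descriptions of single genes against a list mean, and the part of microglial RNA in each difference was not tested.

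Markers of blood-borne and border cells were measured as well. In 5xFAD mice on PBS against wild type, 0 of 9 monocyte and neutrophil markers, 0 of 8 lymphocyte markers and 0 of 6 border macrophage markers were called in either direction, with medians of 0.015, -0.0068 and 0.18. Of 10 astrocyte markers 1 was higher (Gfap, 1.63 ± 0.14 on the log2 scale) and 1 lower (Fgfr3). Of 12 neuron markers 5 were lower and 0 higher, of 9 oligodendrocyte markers 1 was lower and 0 higher, and of 9 endothelium and pericyte markers 1 was higher and 0 lower. Under amylin against wild type 5 of the 9 oligodendrocyte markers were lower (median -0.32). Between amylin and PBS 0 markers of these lists passed. Oligodendrocyte markers had 8 of 9 means lower under amylin (median -0.205), and endothelium and pericyte markers 7 of 9 (median -0.08). For neurons 0 of 12 means were lower (median 0.09), and the other lists named here had medians from -0.02 to -0.002.

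The other Toll-like receptor genes gave 1 call among 4 measured. Tlr13, an endosomal receptor for bacterial ribosomal RNA in mouse, averaged 6.40 ± 0.08 in 5xFAD mice on amylin, 6.73 ± 0.42 in 5xFAD mice on PBS and 5.19 ± 0.13 in wild type (SD, n = 3 each). It was 1.54 ± 0.17 (SE) higher in 5xFAD mice on PBS than in wild type, or 2.90-fold (adjusted p = 0.000851). Tlr6, which also pairs with TLR2, differed by 0.31 ± 0.10 (adjusted p = 0.109), Tlr12 by 0.13 ± 0.12 (0.649) and Tlr8 by 0.01 ± 0.08 (0.964). Tlr13 did not pass between amylin and PBS (-0.33 ± 0.17, adjusted p = 0.763).

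Among 15 partners and trafficking factors of the receptors, 6 rose in 5xFAD mice on PBS, 0 fell and 9 did not pass (median 0.15). Cd180, a Toll-like receptor homologue without a TIR domain, rose by 2.40 ± 0.22 (SE) on the log2 scale, or 5.26-fold (adjusted p = 0.000381), and Ly86, which encodes its partner MD-1 as Ly96 encodes MD-2, by 2.001 ± 0.35 (0.00779). Ly86 was called and Ly96 was not, and the difference between them was not tested. Unc93b1, which carries endosomal receptors out of the endoplasmic reticulum, rose by 0.77 ± 0.13 (adjusted p = 0.00724). Ctss and Ctsl, cathepsins that cut these receptors in the endosome, rose by 1.80 ± 0.15 and 0.63 ± 0.10 (0.000227 and 0.00469).

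Over all 19938 genes, 729 were called higher and 981 lower in 5xFAD mice on PBS, and the counts for the steps below the receptors are read beside these. The 22 adaptors and kinases had a median of 0.0037, and in all but 18 the test was passed: Tab2, Irak3 and Btk rose and Tollip fell. The called differences were 0.19 ± 0.04, 0.19 ± 0.05, 0.39 ± 0.10 and -0.18 ± 0.05 (SE). The other TIR adaptors Tirap, Ticam1 and Ticam2 differed by 0.02 ± 0.14, 0.02 ± 0.06 and -0.01 ± 0.07, with adjusted p of 0.918 to 0.97. Of 14 NF-kB and interferon regulatory factors 2 rose, Irf8, a lineage factor of microglia, by 0.80 ± 0.10 (adjusted p = 0.00139) and Irf5, which acts below MyD88, by 0.47 ± 0.10 (0.019). The NF-kB inhibitor gene Nfkbia, itself an NF-kB target, differed by -0.39 ± 0.15 and did not pass (0.161). Irf3, which acts below TRIF, the adaptor of TLR3, differed by 0.21 ± 0.09 and did not pass (0.234).

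Among 24 target genes of Toll-like receptors, with a median of 0.04, there were 4 that rose, 1 that fell and 19 without a call. The chemokine gene Ccl3 rose by 3.72 ± 0.25 (SE) on the log2 scale, or 13.2-fold (adjusted p = 6.61e-05), the cytokine gene Il1a by 1.36 ± 0.17 (0.00175), the costimulatory gene Cd86 by 1.21 ± 0.18 (0.00399) and the chemokine gene Cxcl10 by 0.44 ± 0.10 (0.0286). Ptgs2, the inducible cyclooxygenase, which neurons also express, fell by 0.53 (adjusted p = 0.0388). Tnf, a classic target, differed by -0.15 ± 0.08 (0.335) and Il1b by 0.32 ± 0.12 (0.158).

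**Figure D4:**
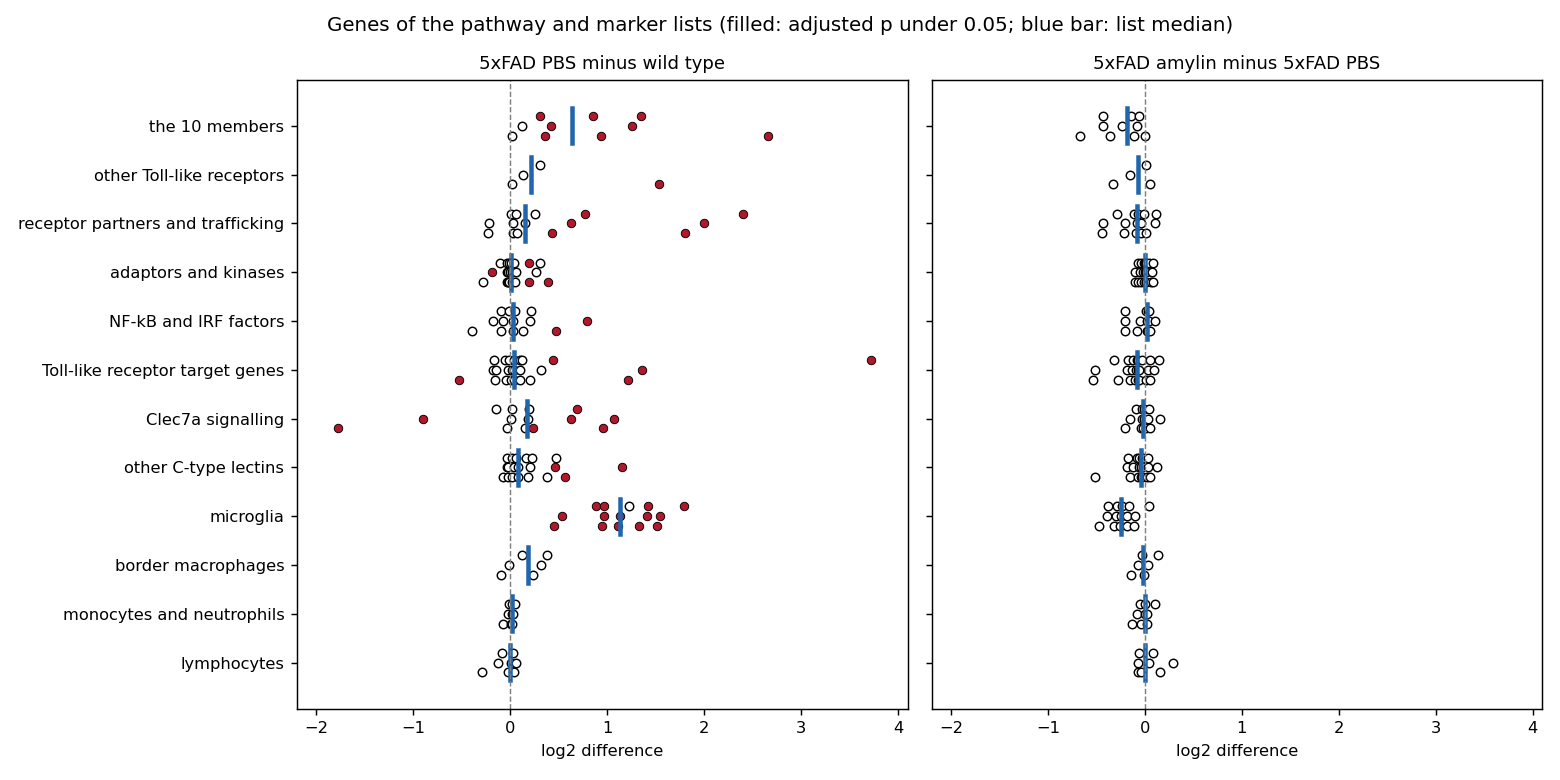
Log2 differences of the 10 genes and of the genes of each pathway or marker list in 5xFAD mice on PBS against wild type and in 5xFAD mice on amylin against 5xFAD mice on PBS; each point is a gene, filled where called, and the blue bar is the list median. On the left, 8 of the 10 genes and 14 of 15 microglia markers are filled to the right of 0, the list medians of adaptors and kinases and of NF-kB and interferon regulatory factors lie at 0.0037 and 0.025 with called genes up to Irf8 at 0.80, and no listed gene is called between amylin and PBS.

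Genes around Clec7a were called in both directions. Of 14 genes of its signalling route 5 rose and 2 fell in 5xFAD mice on PBS, with a median of 0.17. Ptpn6, the phosphatase SHP-1, rose by 0.69 ± 0.11 (SE; adjusted p = 0.00415) and Cybb, the catalytic subunit of the phagocyte NADPH oxidase, by 1.07 ± 0.17 (0.00528). Vav3 fell by 0.90 on the log2 scale (0.000711) and Prkcd fell by 1.78 (0.00661), and Prkcd is also on the list of thalamic markers. Syk and Card9, the kinase and the adaptor that carry the dectin-1 signal, differed by 0.18 ± 0.10 (0.364) and -0.04 ± 0.07 (0.847).

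Of 20 other C-type lectins and related receptors 3 rose and 0 fell, with a median of 0.07. Clec5a, a DAP12-coupled receptor of myeloid cells, rose by 1.16 ± 0.18 (SE; adjusted p = 0.00473), Clec12a, an inhibitory receptor for uric acid crystals, by 0.56 ± 0.06 (0.00057) and Cd302 by 0.46 ± 0.11 (0.0255). The mannose receptor gene Mrc1, a border macrophage marker, differed by 0.38 ± 0.10 (0.0502). Between amylin and PBS 0 genes passed in any of the 7 pathway lists, with medians from -0.08 to 0.02.

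The same lists were read in 5xFAD mice on amylin against wild type. The other Toll-like receptors gave 1 higher of 4, again Tlr13 (1.21 on the log2 scale, adjusted p = 0.00438). Of 15 partners and trafficking factors 4 were higher and 1 lower, and of 22 adaptors and kinases 0 were higher and 1 lower. Among 14 NF-kB and interferon regulatory factors 1 was higher, and among 24 target genes 3 were higher and 1 lower. The 14 genes of Clec7a signalling gave 5 higher and 2 lower, and the 20 other C-type lectins gave 1 higher, Clec12a.

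For each of the 8 genes called in 5xFAD mice on PBS, the genes most like it were those whose 9 values, relative to their own wild-type mean, had the smallest mean absolute difference from it. Cd14 was nearest to Samsn1 (0.11 log2 units over the 9 arrays), Tlr13 (0.11), Ctsd (0.12) and Gpr34 (0.12), the last a microglia marker. Tlr7 was nearest to Itgb2 (0.14), Klhl6 (0.15), Laptm5 (0.16) and Trim30a (0.16), and Tlr2 to Lgals9, Lpcat2, Selplg and Cyth4 (0.073 to 0.08). Clec7a was nearest to C3ar1 (0.26), Ccl6 (0.29), Lyz2 (0.30) and the striatal gene Rgs9 (0.31). These distances are wider than those of the other called genes, but the measure is not scaled to the size of the change. C3ar1 rose by 2.59 in 5xFAD mice on PBS. Small changes match many genes by this measure: Myd88 was nearest to Camk4, Samd3, Lmo7 and Kctd1 (0.046 to 0.052), Tlr4 to Krcc1, H1f2, Ptchd1 and Smim27 (0.035 to 0.052) and Tlr3 to Xrcc4, Fgfrl1, Erap1 and Gipc2 (0.039 to 0.05). Tlr1 was nearest to Mhrt, S100a6, Cd37 and Plau (0.10 to 0.13).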

How the data were processed

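Total RNA from mouse brain was labelled with biotin and hybridised to Affymetrix mouse gene arrays, per the labels' protocols. The deposited values are log2 intensities made by the authors with RMA in the oligo package, per the submitters' processing notes, with versions and settings not given in the sources used here. Of 35556 probe sets, 21789 named 1 gene, 1621 several and 12146 none in the platform annotation, and a gene with several single-gene probe sets (999 genes) was read through its brightest by mean log2 value. The 19938 genes were fitted with limma 3.58.1 (lmFit and eBayes, R 4.3.3), with a mean per group over all 9 arrays and no covariates, for 3 comparisons, and Benjamini-Hochberg adjustment ran over all genes in each. The procedure was tested on simulated data. No pair of arrays held the same values.

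The 10 genes and all lists were chosen with earlier results of these data known, so counts over them are descriptions. All 10 genes were named, with the 4 genes most like each called one and the 4 genes of smallest p in each pathway list in 5xFAD mice on PBS against wild type. Ly86, Ptgs2, Il1b, Tnf, Tirap, Ticam1, Ticam2, Syk and Card9 fell outside that rule and were named after their values were seen, as were the marker genes named. Promoter sequences are from RefSeq, GRCm38.p6. Alternatives covered the threshold, scaling, filters on dim genes, the prior, weighting arrays by quality, blocking on replicate number and leaving out each array.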

Additional observations from a re-analysis of the deposited data

How the results depend on the processing

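In 5xFAD mice on PBS against wild type, 8 of the 10 genes and 1710 of all genes were called. The counts were 5 and 413 with a 1.5-fold minimum, and 3 of the 4 genes still tested when the dimmer 50% of genes was left out. Leaving out 1 array gave 7 to 8 of the 10 genes and 863 to 1306 of all genes. In 5xFAD mice on amylin against wild type, 5 of the 10 and 1039 of all genes were called. This became 3 and 315 with a 1.5-fold minimum, 7 and 1723 at an adjusted p under 0.1, and 1 of 4 without the dimmer 50%. Leaving out 1 array gave 3 to 4 of the 10 and 447 to 911 of all genes. In amylin against PBS, 0 of the 10 genes passed under any setting run; over all genes, 1 passed, against 0 with a 1.5-fold minimum, 0 in a fit of the 2 groups alone, 0 with the replicate block and 0 to 7 without 1 array.

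Some small differences changed sign when 1 array was left out. Tlr9 in PBS against wild type ran from -0.022 (without PBS replicate 3) to 0.051, and was -0.0081 without wild-type replicate 1; in amylin against wild type it ran from -0.21 to 0.087 (without amylin replicate 3). Between amylin and PBS, Myd88 was 0.0066 with quantile normalization repeated, 0.0060 with arrays centred, 0.016 without amylin replicate 3 and -0.047 to 0.055 (the highest without PBS replicate 3) over single arrays left out. Tlr7 was 0.041 with array weights and -0.30 to 0.14 (without PBS replicate 2) over single arrays left out, and Tlr9 -0.22 to 0.072 (without amylin replicate 3). The cause was not tested. With the replicate number as a block, 8, 0 and 6 of the 10 genes were called in PBS against wild type, amylin against PBS and amylin against wild type, and 1638, 0 and 1059 of all genes. The labels do not say whether the numbers pair the samples. Residuals of same-numbered arrays correlated at -0.056 to 0.183, with 4 of 9 pairs over 0.1. Those of arrays with unlike numbers correlated at -0.232 to 0.126, with 4 of 18 pairs over 0.1. Not every array correlated best with arrays of its own number, and these values do not settle whether the samples are paired. With no detection call among the values, it is not known whether the dim genes Tlr4 and Ly96 stood above background.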
